A study of Mus musculus with 19 samples.

Results

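The genes described here encode subunits of potassium channels or proteins that bind to these channels, and their expression was followed through the depth of the mouse primary somatosensory cortex (S1). A list of 52 such genes was taken by name, chosen with earlier results of these data known, and 50 of them were matched by Ensembl gene identifier among the 24130 genes listed in at least 1 library. Kcnb2 and Kcnj11 had no match by identifier and were not analysed here. PolyA RNA came from male C57BL/6 mice (C57BL/6J in the description of the study) aged 56 days, an inbred wild-type strain, and no treatment is named in the labels. S1 was dissected into 6 segments. By the labels, A held mostly layers 1 to 3, B mostly layer 4, C and D mostly layer 5, E mostly layer 6 and F mostly layer 6b, so that a segment is not a pure layer. Samples A, C, D, E and F were 1 library each from the pooled RNA of 8 mice, and samples B1 and B2 each held the pooled RNA of the 4 mice of 1 litter. By the description of the study, the same 8 mice gave all segments, so the segments do not come from independent animals. Segment B was thus the only one with replicates (n = 2), the variation between single mice was not measured, and p-values rest on the scatter of these 7 libraries around a trend.

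Potassium channels carry potassium out of the cell. They hold the membrane near rest, end the action potential and set how fast a neuron can fire again. Voltage-gated (Kv) alpha subunits form the pore and open on depolarisation, and silent subunits, Kv beta proteins and KChIPs change the pore's gating or its traffic to the surface. Inward rectifiers (Kir) and K2P channels set the resting potential, and BK, SK and Slo2 channels open with calcium or sodium that enters during firing.

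Expression was given as FPKM (fragments per kilobase of gene model, scaled to the mapped fragments of the library), each with a 95% interval from the deposited tables. The interval covers the estimate within a library and not the variation between mice. Genes were taken as classifiable when none of their intervals was wider than 50% of the mean over the libraries, which held for 11409 genes and for 45 of the 50 members. Kcna5, Kcnd3, Kcnj16, Kcnk10 and Kcnn3 did not pass. Shares express the FPKM of a segment as a percentage of the sum over the 6 segments, where B1 and B2 were averaged. Estimated depth was 31.3 M fragments in A, the shallowest library, and up to 74.9 M in B2.

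The dissection carried more than layers of neurons. The summed FPKM of 8 oligodendrocyte markers was 326 FPKM in A, 841 in B1, 849.6 in B2, 1643 and 2202 in C and D, 4090.3 in E and 12506 in F, and all 8 were highest in F. The sum of 8 pan-neuronal markers was lowest in A at 1308 FPKM and highest in D at 3035 FPKM, although Rbfox3 among them was highest in A. The sum of 8 excitatory neuron markers went the other way, highest in A at 6097 FPKM and lowest in F at 2405 FPKM. The sum of 8 meningeal markers was 1772 FPKM in A and 80.2 to 277 FPKM elsewhere, and striatal Drd1, Drd2 and Adora2a were highest in F. No listed marker of the 9 lists was at 0 in any library. Mitochondrial genes took 21.8% of the summed FPKM in A and 18.2% in B2, against 5.03% to 9.79% in the other 5 libraries. The median FPKM of classifiable genes was 6.23 in A and 9.81 in F, and a median-of-ratios scaling gave A a factor of 0.77 and F a factor of 1.15. It moved the median slope of all classifiable genes from 0.09 to -0.0023 log2 units per segment, so called slopes are given as deposited and after scaling. In pooled tissue, fewer cells of a type and less RNA per cell cannot be told apart.

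Like most classifiable genes, most potassium channel subunits were lowest in A, and they reached their highest levels in different segments below. Of the 45 classifiable members, 29 (64.4%) had their lowest segment in A, beside 56% of all classifiable genes. After scaling 24 members still had it there, and the share of all genes after scaling was not computed. The highest segment was A for 3 members, B for 11, C for 8, D for 5, E for 10 and F for 8. B was the highest segment of 24.4% of the members and of 7.98% of all classifiable genes, whereas F was the highest of 17.8% and 31.9%. For Kcnab3, Kcnc1, Kcnh1, Kcnh2 and Kcnk4 the place of B rested on B1, since B2 lay below another segment. How often this was so among all genes was not computed. After scaling, B was the highest for 16 members (35.6%, beside 12.1% of all genes) and F for 8 (17.8%, beside 19.4%). In the summed FPKM of the 50 members, A had 741, the other libraries 1053 to 1346.

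**Figure D1:**
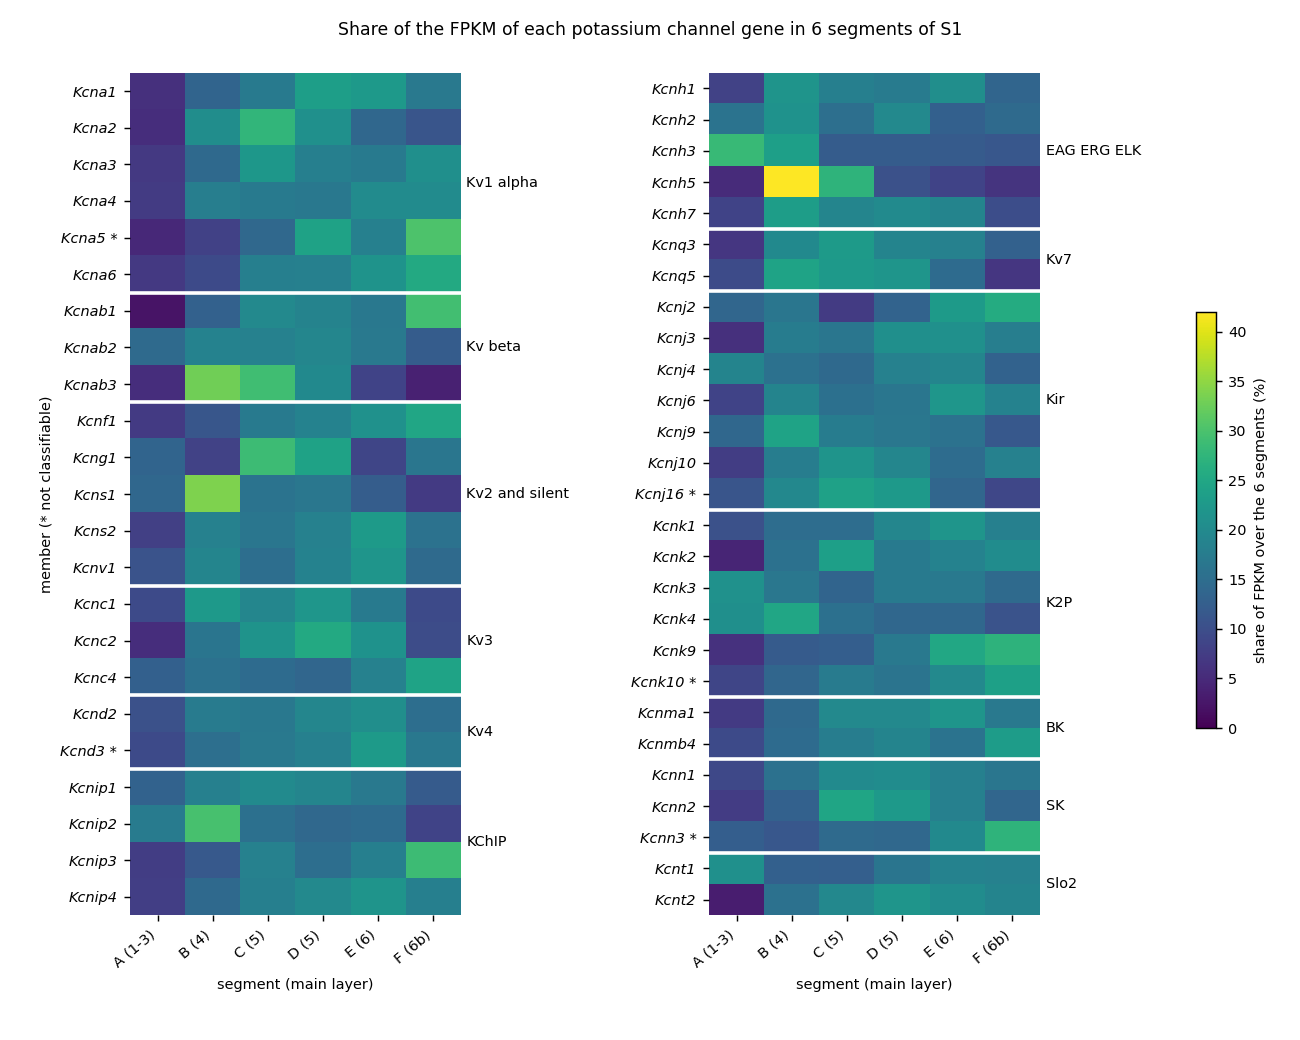
Share of each member's FPKM (colour, % over the 6 segments, B the mean of B1 and B2) in each segment (columns), with the 50 members in rows by subfamily and an asterisk for the 5 that were not classifiable. The A column is dark for most members, and the brightest cell is Kcnh5 in B at 42%.

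Trends with depth were tested by limma in one fit over all 11409 classifiable genes, with a linear and a quadratic term of segment position on log2(FPKM + 0.1), and p-values were adjusted over all of them. A trend was called for 23 of the 45 members (51.1%), beside 43.5% of all genes tested. The linear slope was called above 0 (rising) for 15 members, Kcna1, Kcna6, Kcnab1, Kcnf1, Kcnc2, Kcnip3, Kcnip4, Kcnj3, Kcnk1, Kcnk2, Kcnk9, Kcnma1, Kcnmb4, Kcnn2 and Kcnt2, beside 34.8% of all genes. It was called below 0 (falling) for 4 members, Kcnip2, Kcnh3, Kcnq5 and Kcnk4, beside 6.41% of all genes. After scaling the split was 7 rising and 8 falling, beside 15.1% and 13.8% of all genes. After a correction for the GC content of transcripts it was 8 and 5, beside 13.9% and 12.4%. The 7 that kept their rise after scaling were Kcna1, Kcna6, Kcnab1, Kcnf1, Kcnip3, Kcnk9 and Kcnma1. All 4 falling members kept their fall, and Kcnab3, Kcns1, Kcnip1 and Kcnj9 joined them. The median slope of the members was 0.13 log2 units per segment as deposited and 0.03 after scaling, beside 0.09 and -0.0023 for all genes. Subfamilies held 1 to 6 classifiable genes each, so counts within them are descriptions to be read beside these shares of all genes.

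Library A decided many of these calls. All 15 rising members had their lowest value in A. Without A, a trend was called for 5 members, Kcna6, Kcnab3, Kcnc2, Kcnh5 and Kcnq5, beside 10.1% of all genes. Kcna6, Kcnf1 and Kcnk9 then rose from B to F (6.67% of the members, beside 14.3% of all genes), and 8 members fell (17.8%, beside 3.87%), namely Kcna2, Kcnab3, Kcns1, Kcnip2, Kcnh5, Kcnh7, Kcnq5 and Kcnk4. The rises of Kcna6, Kcnf1 and Kcnk9 were called with any single library left out, and those of Kcna1, Kcnab1, Kcnip3, Kcnip4, Kcnma1 and Kcnt2 with any but A. The other 6 rises also ended without at least 2 further libraries among B2, C, D, E and F. Of the 4 falls, none was called by limma without E, where 5 members fell at an unadjusted p under 0.05, and without F that of Kcnh3 alone was called. No call of a rise or fall ended without B1, which raised the rising members to 21. The trend was called for 15 members without C. The 8 members highest in F lie in the segment where oligodendrocyte markers were highest, and the low values in A in the one where pan-neuronal markers were lowest and excitatory neuron markers highest, and the part of any of them in the trends was not tested.

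**Figure D2:**
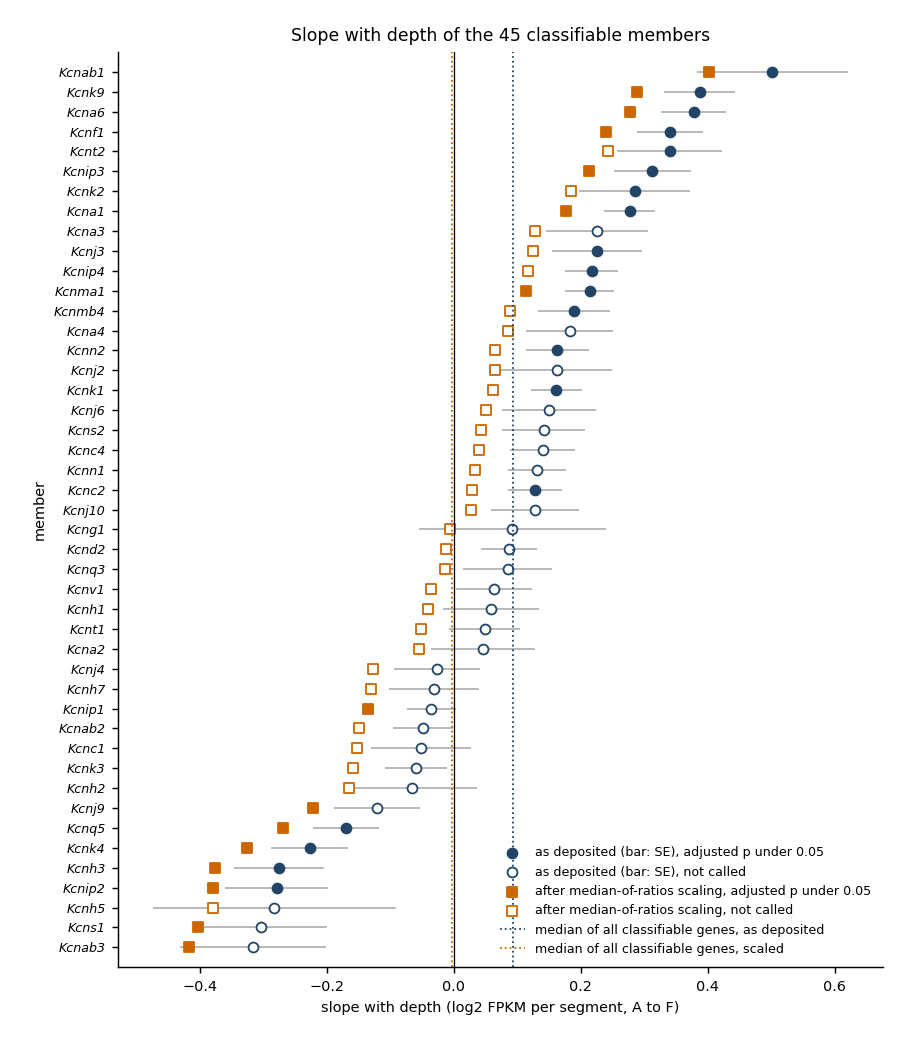
Slope with depth (x axis, log2 FPKM per segment from A to F) of the 45 classifiable members (rows), as deposited (circles, bars ± SE) and after median-of-ratios scaling (squares), filled where the adjusted p of limma is under 0.05. Dotted lines mark the medians of all classifiable genes, 0.09 as deposited and -0.0023 after scaling, and scaling turns the slope of 7 members, Kcna2, Kcng1, Kcnv1, Kcnd2, Kcnh1, Kcnq3 and Kcnt1, from above to below 0.

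Kv1 alpha subunits, which open near threshold and sit in axons and beside nodes, did not share a segment. Their summed FPKM was 38.3 FPKM in A, 92.4 and 86.1 in B1 and B2, 128 and 129.6 in C and D, and 121 and 114 in E and F. Of 5 classifiable subunits, 2 rose and 1 more changed along a curve. Kcna1 had 12.4 FPKM in A, 29.9 and 27.7 in B1 and B2, 36.7 in C, 50.1 in D, and 47.9 and 36.1 in E and F. It climbed to a distinct high in D, meaning that the interval in D lay above the intervals of all other segments, and then dropped back in F. The slope was 0.28 ± 0.04 log2 units per segment (SE; limma, adjusted p = 0.00399), 0.18 after scaling (adjusted p = 0.0182) and 0.13 without A (adjusted p = 0.0665). Kcna2, which often joins Kcna1 in one channel, had 9.43 FPKM in A, 38.1 in B1, 32.8 in B2, 47.6 and 36.4 in C and D, 24.1 in E and 19.1 in F. Its distinct high was in C, 1 segment above that of Kcna1, and from C to F it declined while Kcna1 was at least 36.1 FPKM there. The trend of Kcna2 was called (limma, adjusted p = 0.0221), and its slope was not (adjusted p = 0.681).

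Kcna6 (ENSMUSG00000038077, chr6:126658347-126690680 in mm9) was the Kv1 subunit whose rise was called with any single library left out. It had 13.2 FPKM in A, 15.6 and 19.6 in B1 and B2, 34 and 34.2 in C and D, and 40.3 and 47.9 in E and F. B and A were low, and F stood apart from all other segments by its interval. The slope of Kcna6 was 0.38 ± 0.05 log2 units per segment (limma, adjusted p = 0.00331), 0.28 after scaling (adjusted p = 0.0114) and 0.35 without A (adjusted p = 0.0222). Kcna5 had the lowest mean of the Kv1 genes, with 0.303 FPKM in A, 0.650 and 0.360 in B1 and B2, 0.884 in C, 1.51 in D, and 1.14 and 1.89 in E and F. Its largest share, 30.3%, was in F, and it was too imprecise to be tested. Kcna3 ranged over 1.47 to 4.68 FPKM and Kcna4 over 1.54 to 4.27 FPKM, both with the lowest value in A and neither with a trend called (limma, adjusted p = 0.0660 and 0.0782).

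The Kv beta proteins bind to the inner face of Kv1 channels, and their 3 genes had different profiles. Kcnab2 had the highest mean of all members, 122 FPKM, with 104 FPKM in A, 158 in B1, 109.5 in B2, 133 and 139 in C and D, 122 in E and 88 in F. The libraries differed by at most 1.79-fold, and B1 and B2 alone spanned most of that range. No trend was called (limma, adjusted p = 0.127). Kcnab3 (ENSMUSG00000018470, chr11:69139760-69146544 in mm9) had 8.20 FPKM in A, 56.5 and 41.3 in B1 and B2, 43.3 and 29.5 in C and D, and 12.7 and 5.85 in E and F. Both B libraries and C were high, and A and F were lowest. The share of Kcnab3 in B was 32.9%, the highest library exceeded the lowest 9.67-fold, and B had 48.9 ± 10.8 FPKM (SD, n = 2). Its trend was called with all libraries (limma, adjusted p = 0.0121) and without A (adjusted p = 0.0120), and from B to F it fell by 0.73 log2 units per segment. An antisense gene, Kcnab3os, was listed at 0.199 to 0.626 FPKM, and the library kit as described does not mark strand, so reads of the pair cannot be told apart where they overlap.

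Kcnab1 (ENSMUSG00000027827, chr3:64913306-65182140 in mm9) went the opposite way to Kcnab3. It had 2.91 FPKM in A, 17.5 and 16.5 in B1 and B2, 25.7 in C, 24.6 in D, and 22 and 38.2 in E and F. A was far below every other library, and F stood apart as the highest. The fold of F over A was 13.2, the largest of the 45 classifiable members, and the slope was 0.50 ± 0.12 log2 units per segment (limma, adjusted p = 0.0160) and 0.40 after scaling (adjusted p = 0.0410). The call was lost after GC correction (slope 0.35, adjusted p = 0.0670) and without A (slope 0.23, adjusted p = 0.0802).

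Silent subunits do not form channels alone and alter the Kv2 channels they join, and they included both a gene highest in B and a deep gene. Of the 5 classifiable genes in this group, 1 rose and none fell as deposited. All 5 had a distinct highest segment, beside 39.9% of all classifiable genes. Kcnf1 (ENSMUSG00000051726, chr12:17181507-17182988 in mm9) had the highest mean, with 12.2 FPKM in A, 23.2 in B1, 15.1 in B2, 29.5 and 31.9 in C and D, 36.4 in E and 42.6 in F. The values climbed from A to F apart from B2, which lay below B1. The slope of Kcnf1 was 0.34 ± 0.05 log2 units per segment (limma, adjusted p = 0.00459), 0.24 after scaling (adjusted p = 0.0171) and 0.29 without A (adjusted p = 0.0407).

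Kcns1 (ENSMUSG00000040164, chr2:163989355-163996849 in mm9) had 8.69 FPKM in A, 26.7 and 15.3 in B1 and B2, 9.90 and 10.3 in C and D, and 7.65 and 4.43 in E and F. Both B libraries were above all others by their intervals, with 33.8% of expression in B, although B1 and B2 were themselves far apart at 21 ± 8.05 FPKM (SD, n = 2). Neither its trend (limma, adjusted p = 0.0612) nor its slope (adjusted p = 0.0526) was called as deposited, and the slope was called after scaling (-0.40, adjusted p = 0.0294). Kcng1 was highest in the layer 5 segments, with 4.08 FPKM in A, 2.50 and 2.49 in B1 and B2, 8.68 in C, 7.28 in D, and 2.66 and 4.99 in E and F. C and D were high and B and E low, and a linear and quadratic trend did not describe it (limma, adjusted p = 0.709). B1 and B2 of Kcng1 were almost equal, 2.50 ± 0.0108 FPKM (SD, n = 2). Kcns2 ranged over 3.28 to 9.49 FPKM and Kcnv1 over 12 to 24.5 FPKM, both with a distinct high in E and no trend called.

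Kv3 subunits let neurons fire fast and are known from parvalbumin interneurons. Kcnc1 had 20.1 FPKM in A, 63.5 in B1, 32.4 in B2, 40.7 and 46.6 in C and D, 36.2 in E and 20.0 in F. B1 was highest, but B2 lay below C, D and E, so that B with 48 ± 22 FPKM (SD, n = 2) could not be placed among them. Its trend was not called (limma, adjusted p = 0.0567). Kcnc2 had 4.72 FPKM in A, 13.8 and 13.7 in B1 and B2, 18.2 and 21.5 in C and D, and 18.1 and 8.20 in E and F. The 2 libraries of B differed by less than their intervals, and the profile was an arch with a distinct high in D. The trend of Kcnc2 was called with all libraries (limma, adjusted p = 0.00362), after scaling (adjusted p = 0.00728) and without A (adjusted p = 0.0354). Its slope, 0.13 ± 0.04 log2 units per segment as deposited (adjusted p = 0.0486), was 0.03 after scaling (adjusted p = 0.625) and turned to -0.01 after GC correction and to -0.09 without A, and its call also ended without C, D or E. Kcnc4, with 21.2 FPKM in A, 29.5 and 21.7 in B1 and B2, 24 in C, 22.8 in D, and 30.3 and 39.9 in E and F, was the exception in that F stood highest. Pvalb itself had 61.1 FPKM in A, 70.2 in B1, 118 in B2, 145 and 117 in C and D, 56.4 in E and 16.5 in F, highest in C, with B2 above B1 where Kcnc1 had B1 above B2, and its part in these profiles was not tested.

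**Figure D3:**
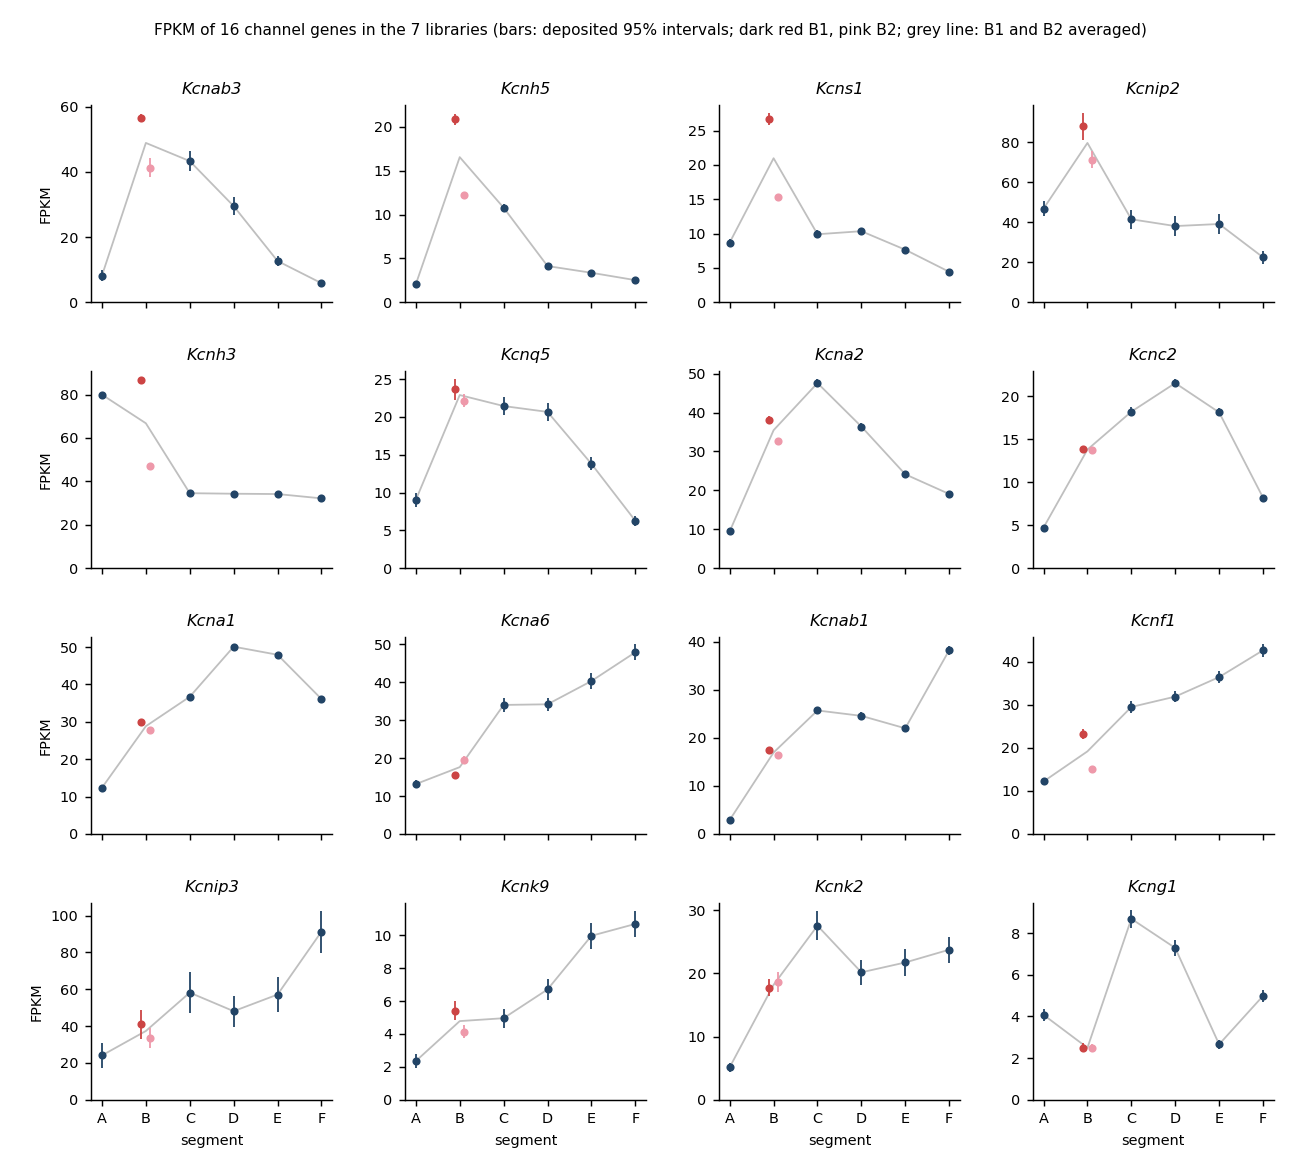
FPKM (y axis, from 0) of 16 members in the 7 libraries (x axis, segment), with the deposited 95% intervals as bars, B1 in dark red, B2 in pink and a grey line through the segments with B1 and B2 averaged. The first panels show members high in B and low in F, such as Kcnab3 from 56.5 FPKM in B1 to 5.85 FPKM in F. The lower rows hold members highest in F, such as Kcna6 at 47.9 FPKM, beside Kcna1 (highest in D), Kcnk2 and Kcng1 (highest in C).

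Kv4 channels carry the fast transient current of dendrites, and KChIPs are the calcium-binding proteins attached to them. Kcnd2 had 9.31 FPKM in A, 15 and 16.2 in B1 and B2, 15 and 17.2 in C and D, and 18.5 and 13.6 in E and F. Apart from A the libraries lay close together, and no trend was called (limma, adjusted p = 0.0565). Kcnd3 had 3.39 FPKM in A, 5.73 and 5.23 in B1 and B2, 6.09 in C, 6.56 in D, and 8.22 and 6.04 in E and F and was not classifiable. An antisense gene, Kcnd3os, was listed beside it at 0.283 to 0.821 FPKM.

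KChIP genes, whose pore-forming partners are Kv4 subunits, had members highest in B and members highest in F. Of 4 classifiable KChIP genes, 2 rose and 1 fell. Kcnip2 (ENSMUSG00000025221, chr19:45866836-45890512 in mm9) had 46.8 FPKM in A, 87.8 in B1, 71.3 in B2, 41.4 and 38 in C and D, 39.1 in E and 22.4 in F. Both B libraries stood above all others, A was next, and F was lowest. The share of Kcnip2 in B was 29.8%, and its slope was -0.28 ± 0.08 log2 units per segment (limma, adjusted p = 0.0319), -0.38 after scaling (adjusted p = 0.0173) and -0.40 without A (adjusted p = 0.0277). The joint test of its linear and quadratic terms missed the threshold (adjusted p = 0.0527). The fall of Kcnip2 was not called without B2, D, E or F, with slopes of -0.25, -0.28, -0.31 and -0.20. Kcnip3 (ENSMUSG00000079056, chr2:127282234-127347106 in mm9), also known as calsenilin, had 24.1 FPKM in A, 41 and 33.7 in B1 and B2, 58.2 and 48.1 in C and D, and 57.1 and 91.3 in E and F. F was above all other segments and A lowest, the reverse of Kcnip2. The slope of Kcnip3 was 0.31 ± 0.06 log2 units per segment (limma, adjusted p = 0.00846) and 0.21 after scaling (adjusted p = 0.0308), and it missed the threshold without A (adjusted p = 0.0549). Its widest interval was 44.9% of its mean, close to the limit. Kcnip4 ranged over 9.44 to 26.5 FPKM and rose as deposited but not after scaling, with a slope of 0.22 ± 0.04 (limma, adjusted p = 0.00796) that was 0.12 after scaling (adjusted p = 0.0590), 0.05 after GC correction (adjusted p = 0.227) and 0.12 without A (adjusted p = 0.106). Kcnip1 ranged over 6.99 to 11.8 FPKM, and a trend was called (limma, adjusted p = 0.0407). Its highest segment was C only with B1 and B2 averaged, since B2 (11.8 FPKM) lay above C (11.6 FPKM). After scaling its highest segment was B.

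The EAG, ERG and ELK channels, the ether-a-go-go family of voltage-gated channels, had their summed FPKM highest in B and lowest in F. The sum was 109 FPKM in A, 174 and 109.6 in B1 and B2, 92.3 in C, 88.1 in D, and 85.8 and 68.3 in E and F, and F over A was 0.627, the lowest of the 13 subfamilies. Kcnh3 carried this, since the fold was 1.25 for the other 4 members, and 3 of the 5 had more FPKM in F than in A. Of 5 classifiable members, 1 fell and 4 of the 5 were highest in B, beside 7.98% of all classifiable genes highest there. For Kcnh1 and Kcnh2 this rested on B1. Kcnh1 had 23.8 FPKM in B2 and 24.5 in E, and Kcnh2 was lowest in B2. Kcnh5 (ENSMUSG00000034402, chr12:75998207-76278319 in mm9) had 2.05 FPKM in A, 20.9 in B1, 12.2 in B2, 10.8 and 4.13 in C and D, 3.36 in E and 2.52 in F. B1 and B2 were above all other libraries, C came next, and A was lowest. With 42%, Kcnh5 had the largest share in a single segment of all members, and the only one of at least 40%. B had 16.5 ± 6.10 FPKM (SD, n = 2), and its lower library was still above C. The trend was called without A and not with all libraries (limma, adjusted p = 0.0271, against 0.153 with all libraries), and from B to F Kcnh5 fell by 0.70 log2 units per segment (adjusted p = 0.0119).

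Kcnh3, an ELK channel of the forebrain, had 80.0 FPKM in A, 86.6 and 46.9 in B1 and B2, 34.5 and 34.3 in C and D, and 34.1 and 32.1 in E and F. A and B1 were high, B2 was intermediate, and C to F lay within 32.1 to 34.5 FPKM. The slope was -0.28 ± 0.07 log2 units per segment (limma, adjusted p = 0.0216) and -0.38 after scaling (adjusted p = 0.0133), and the call was lost without A (adjusted p = 0.117) and without E (slope -0.28). Kcnh7 was highest in B and lowest in A, at 6.94 FPKM in A, 18.8 and 19.6 in B1 and B2, 15.6 in C, 16.4 in D, and 15.5 and 8.14 in E and F. Its B libraries stood above all others and differed little, with 19.2 ± 0.511 FPKM (SD, n = 2). Kcnh1 ranged over 9.76 to 27.6 FPKM. Kcnh2 ranged over 7.15 to 20.0 FPKM, and that range was set by B2 and B1, the lowest and the highest of its 7 libraries.

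Kv7 subunits carry the M-current that cholinergic input turns off. Both classifiable genes had a trend called and an arched profile. Kcnq5 (ENSMUSG00000028033, chr1:21388484-21952023 in mm9) had 9.01 FPKM in A, 23.7 in B1, 22.1 in B2, 21.4 and 20.7 in C and D, 13.8 in E and 6.27 in F. B, C and D were alike, and A, E and F were lower, with F lowest. The slope was -0.17 ± 0.05 log2 units per segment (limma, adjusted p = 0.0385), -0.27 after scaling (adjusted p = 0.0115) and -0.40 without A (adjusted p = 0.00809). Without F the slope was 0.06, so that the fall of Kcnq5 rested on F, and it was not called without B2, C or E either (slopes -0.14, -0.16 and -0.19). Kcnq3 ranged over 4.94 to 16.9 FPKM, highest in C and lowest in A (limma, trend adjusted p = 0.0321).

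Inward rectifiers had a summed FPKM of 141 FPKM in A, 242 and 190.4 in B1 and B2, 199 and 214 in C and D, and 207 and 177 in E and F. Of 6 classifiable genes 1 rose and none fell as deposited, beside 34.8% and 6.41% of all genes. Kcnj4 had the highest mean, with 62.2 FPKM in A, 63.1 and 39.9 in B1 and B2, 47 in C, 60.5 in D, and 62.5 and 43.4 in E and F. The segments had no order, and B1 and B2 were the highest and the lowest library (limma, trend adjusted p = 0.931). Kcnj2 had 2.40 FPKM in A, 2.80 in B1, 2.94 in B2, 1.28 and 2.32 in C and D, 3.97 in E and 4.48 in F. C was lowest and F highest, and neither trend nor slope was called (adjusted p = 0.142 and 0.175).

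The G protein-gated rectifiers Kcnj3, Kcnj6 and Kcnj9, which combine in neuronal channels, differed from each other. Kcnj3 had 11.4 FPKM in A, 35 and 34.4 in B1 and B2, 32.2 and 41 in C and D, and 41.4 and 35.3 in E and F. A alone was low, and the other libraries were within 1.29-fold of each other by segment. Kcnj3 rose as deposited (slope 0.22 ± 0.07, limma, adjusted p = 0.0407), and this was lost after scaling (slope 0.12, adjusted p = 0.197), after GC correction (slope 0.07, adjusted p = 0.473) and without A (slope 0.04, adjusted p = 0.514). Kcnj9 had 36 FPKM in A, 75 and 49.3 in B1 and B2, 45 in C, 42.7 in D, and 40.5 and 29.5 in E and F. It had a distinct high in B and fell only after scaling (slope -0.22, adjusted p = 0.0447). Kcnj6 ranged over 7.20 to 18.6 FPKM with no trend called. Kcnj10, the rectifier of astrocytes and oligodendrocytes, had 19.1 FPKM in A, 42.8 in B1, 45.1 in B2, 54.1 and 48 in C and D, 36.8 in E and 46 in F. Its distinct high was in C, and the oligodendrocyte markers were highest in F. The summed FPKM of 8 astrocyte markers was lowest in E at 753 and highest in F at 1010. Of these 8, 4 were highest in F and 2 in A. The part of either cell type in the profile of Kcnj10 was not tested. Kcnj16, which pairs with Kcnj10, ranged over 2.37 to 6.37 FPKM, was highest in C too, and was not classifiable.

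K2P leak channels, like the KChIPs, had both rising and falling members. Of 5 classifiable genes, 3 rose and 1 fell as deposited. Kcnk9 (ENSMUSG00000036760, chr15:72342549-72376709 in mm9), an acid-sensitive leak channel, had 2.35 FPKM in A, 5.42 and 4.14 in B1 and B2, 4.96 and 6.71 in C and D, and 9.97 and 10.7 in E and F. E and F were high and A low, with F over A at 4.54-fold. The slope of Kcnk9 was 0.39 ± 0.06 log2 units per segment (limma, adjusted p = 0.00393), 0.29 after scaling (adjusted p = 0.0123) and 0.32 without A (adjusted p = 0.0235). Kcnk3, the close relative of Kcnk9, ranged over 10.03 to 15.8 FPKM and was the only member with a distinct high in A. Kcnk1 had the highest mean of the group, with 28.3 FPKM in A, 41.2 and 41 in B1 and B2, 41 in C, 52.6 in D, and 59.6 and 49.6 in E and F. B1, B2 and C were alike, E was highest, and the rise as deposited (slope 0.16 ± 0.04, adjusted p = 0.0194) was lost after scaling (slope 0.06, adjusted p = 0.290), with a slope of 0.09 after GC correction (adjusted p = 0.136) and 0.11 without A (adjusted p = 0.134).

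Kcnk4 had 9.44 FPKM in A, 13.3 in B1, 9.08 in B2, 7.0 and 6.36 in C and D, 6.32 in E and 4.82 in F. A, B1 and B2 were above C to F, and its slope of -0.23 ± 0.06 log2 units per segment (limma, adjusted p = 0.0240) was -0.33 after scaling (adjusted p = 0.0114) and -0.27 without A (adjusted p = 0.0467). Its fall was not called without E or F, with slopes of -0.24 and -0.21. Kcnk2, a mechanosensitive channel and a relative of Kcnk4, had 5.15 FPKM in A, 17.8 and 18.6 in B1 and B2, 27.6 and 20.2 in C and D, and 21.7 and 23.8 in E and F. A was low, C was highest, and the rise as deposited (slope 0.28 ± 0.09, adjusted p = 0.0369) was lost after scaling (slope 0.18, adjusted p = 0.125), with a slope of 0.21 after GC correction (adjusted p = 0.107) and 0.07 without A (adjusted p = 0.457). Kcnk10, also of this branch, ranged over 0.581 to 1.58 FPKM, was highest in F and was not classifiable.

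BK channels open with calcium and voltage together, and their pore gene and its brain accessory subunit both rose as deposited. Kcnma1, the pore, had 10.4 FPKM in A, 20.4 and 20.9 in B1 and B2, 28.6 in C, 28.6 in D, and 31.6 and 24.4 in E and F. A was lowest and E highest, and the slope of 0.21 ± 0.04 (limma, adjusted p = 0.00702) was 0.11 after scaling (adjusted p = 0.0473), 0.07 after GC correction (adjusted p = 0.161) and 0.09 without A (adjusted p = 0.127). Kcnmb4 had 30.2 FPKM in A, 53.6 in B1, 40.2 in B2, 56.9 and 60.4 in C and D, 51.1 in E and 74.4 in F. F stood apart as the highest, and the rise (slope 0.19 ± 0.06, adjusted p = 0.0350) was lost after scaling (slope 0.09, adjusted p = 0.234), with a slope of 0.04 after GC correction (adjusted p = 0.669) and 0.13 without A (adjusted p = 0.200). The joint test of the linear and quadratic terms of Kcnmb4 missed the threshold as deposited (limma, adjusted p = 0.0607). The antisense genes Kcnmb4os1 and Kcnmb4os2 were listed at 0 to 5.42 and 4.98 to 7.06 FPKM, the former highest in A, and their reads cannot be told apart from those of Kcnmb4 where they overlap.

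SK channels carry the afterhyperpolarisation that follows a spike. Kcnn2 had 3.51 FPKM in A, 6.90 and 5.24 in B1 and B2, 11.5 and 10.5 in C and D, and 8.56 and 6.44 in E and F. C and D were high, and a trend was called with all libraries (limma, adjusted p = 0.00927) and not without A (adjusted p = 0.101). Its rise as deposited (slope 0.16 ± 0.05, adjusted p = 0.0377) was lost after scaling (slope 0.06, adjusted p = 0.349), with a slope of 0.11 after GC correction (adjusted p = 0.0757) and 0.04 without A (adjusted p = 0.643). Kcnn3 had 0.876 FPKM in A, 1.03 and 0.568 in B1 and B2, 1.01 in C, 0.991 in D, and 1.39 and 1.91 in E and F and was not classifiable. Its highest value was in F and its lowest in B2. Kcnn1 ranged over 2.54 to 5.69 FPKM, highest in D, with a trend called (adjusted p = 0.0242).

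Slo2 channels open with intracellular sodium, and their 2 genes were unlike. Kcnt1 had 26.2 FPKM in A, 14.7 in B1, 17.4 in B2, 15.9 and 20.2 in C and D, 23.1 in E and 22.9 in F. A was highest and B1 lowest, with no trend called (limma, adjusted p = 0.240). Kcnt2 had 1.37 FPKM in A, 6.86 and 6.23 in B1 and B2, 8.20 and 9.12 in C and D, and 8.53 and 7.93 in E and F. A was low and the other libraries were within 1.39-fold by segment. Kcnt2 rose as deposited (slope 0.34 ± 0.08, adjusted p = 0.0173) and missed the threshold after scaling (slope 0.24, adjusted p = 0.0572), and its slope was 0.22 after GC correction (adjusted p = 0.135) and 0.08 without A (adjusted p = 0.143).

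A distinct highest segment was found for 22 of the 45 members, beside 39.9% of all classifiable genes. By segment these were Kcnk3 in A, then Kcns1, Kcnip2, Kcnh5, Kcnh7 and Kcnj9 in B, Kcna2, Kcng1 and Kcnj10 in C, Kcna1 and Kcnc2 in D, Kcns2, Kcnv1, Kcnd2 and Kcnk1 in E, and Kcna6, Kcnab1, Kcnf1, Kcnc4, Kcnip3, Kcnj2 and Kcnmb4 in F. A distinct high in B, where both libraries had to pass, was held by 5 members and by 1.03% of all classifiable genes. In F it was 7 members and 15.0% of all genes. The intervals hold no variation between mice, and when they were widened 2 times, 13 members were left.

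The 2 libraries of segment B, each from 1 litter, differed in most members, about as often as in all classifiable genes. They also differed in mean insert size (239 nt in B1, 193 nt in B2) and in estimated depth (48.9 M and 74.9 M fragments). Differences between litters and between libraries therefore cannot be told apart. The mean insert size was 164 nt in A. B1 and B2 had intervals that did not overlap in 30 of the 45 members (66.7%), beside 66.4% of all classifiable genes. B1 was the higher of these in 25 of the 45 (55.6%), beside 34.3% of all genes. Kcna6, Kcnd2, Kcnip4, Kcnh7 and Kcnj10 were higher in B2. The widest gap was that of Kcnh2, with 20.0 FPKM in B1 and 7.15 FPKM in B2, a log2 ratio of -1.48. The median log2 ratio of B2 to B1 was -0.22 for the members and -0.0014 for all genes. It moved with base composition. Across the 45 members the ratio correlated with the GC content of the transcripts at a Spearman rho of -0.60, beside -0.54 over 10801 genes, as a description across genes that share the 2 libraries. In 41 members the range from B to F, with B averaged, was wider than the gap of B1 and B2, beside 75.2% of all genes.

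**Figure D4:**
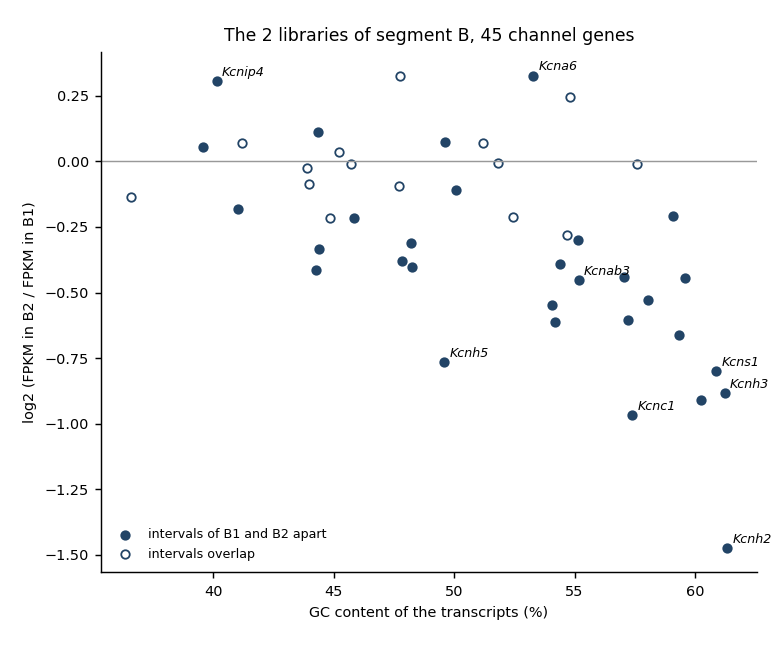
Log2 ratio of the FPKM in B2 to that in B1 (y axis) against the GC content of the transcripts in % (x axis) for the 45 classifiable members, filled where the deposited intervals of both libraries are apart. Points fall from about 0 at low GC content to -0.97 for Kcnc1 and -1.48 for Kcnh2 on the right.

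The transcripts of the members were long by their median. It was 4095 nt, beside 3352 nt for 10801 classifiable genes with a value, and the median GC content was 51.2% and 50.0%. The median share of A was 8.48% for the members, 12.3% for all genes and 9.99% for the 3939 genes at or above the median length of the members. The part of length in the low values of A was not tested beyond these medians and the correction for GC content and length.

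Isoforms could be followed in 5 members with at least 2 classifiable transcripts. In 4 of them, Kcna6, Kcnc1, Kcnj3 and Kcnk2, some pair of libraries other than B1 and B2 had 1 isoform higher in the first and another higher in the second by intervals that did not overlap, beside 78.7% of 1723 genes. In 3 of them, Kcna6, Kcnj3 and Kcnk2, this also held between B1 and B2, beside 37.7% of those genes, so the criterion was also met by libraries of the same segment. Kcnj6 had no such pair. Kcnip1 and Kcnip2 were left out because their isoforms did not sum to the FPKM of the gene.

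The 2 isoforms of Kcnk2 differ at the start of their coding sequence and share the rest. Their coding sequences in GENCODE M21 (GRCm38, minus strand) were 1236 and 1245 bases long with 1235 bases in common at the 3′ end, and the 5′ ends are shown because the isoforms differ there. Capitals mark the bases before the common run.
ENSMUST00000110920: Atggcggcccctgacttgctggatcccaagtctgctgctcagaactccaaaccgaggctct
ENSMUST00000079451: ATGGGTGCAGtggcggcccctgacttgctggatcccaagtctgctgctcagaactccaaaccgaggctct

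ENSMUST00000110920, with the shorter start, had 3.97 FPKM in A, 14.8 and 9.06 in B1 and B2, 12.3 in C, 9.18 in D, and 10.9 and 10.1 in E and F. ENSMUST00000079451, with 9 more bases, had 1.18 FPKM in A, 2.96 in B1, 9.57 in B2, 15.3 and 11 in C and D, 10.8 in E and 13.6 in F. The former was 77.1% in A, 83.3 and 48.6 in B1 and B2, 44.6 and 45.5 in C and D, and 50.1 and 42.5 in E and F of the 2 together. It dominated in A and B1, and the isoforms were near balance in B2 and the deeper segments, so that B1 and B2 fell on different sides. The file model of ENSMUST00000079451 was 3140 nt long and that of GENCODE M21 3297 nt.

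Kcna6 had the largest change of isoform fraction, 49.3 percentage points between segments. ENSMUST00000040751 took 29.8% in A, 100 and 52 in B1 and B2, 69.2 in C, 79.1 in D, and 77.6 and 77.3 in E and F, and ENSMUST00000128137 the rest. A was the only library in which ENSMUST00000128137 was ahead, and it was listed at 0 in B1 but at 9.42 FPKM in B2. No listed transcript lies under 5% of the main one of its locus, so weak isoforms may be missing from a library's table. In Kcnj3 the largest change between segments was 32.1 percentage points. ENSMUST00000112633 had 1.84 FPKM in A, 0 in B1, 19.1 in B2, 11.7 and 13.5 in C and D, 14.1 in E and 1.47 in F. It was listed at 0 in B1 and highest in B2, a gap of 55.5 points within B. Other Kcnj3 transcripts were not classifiable. Of these, ENSMUST00000096563 (786 nt) was above 0 in F alone, at 10.6 FPKM or 30.1% of the gene. ENSMUST00000112632 was above 0 in A alone, at 16.8% of the gene. Their part in the low value of ENSMUST00000112633 in A and F was not tested. Kcnc1 changed by 26.7 points. ENSMUST00000098442 took 41% in A, 73.8 and 51.1 in B1 and B2, 65 and 67.7 in C and D, and 62.9 and 58.2 in E and F of the FPKM of Kcnc1. It was lowest in A and highest in B1, with B2 between them.

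**Figure D5:**
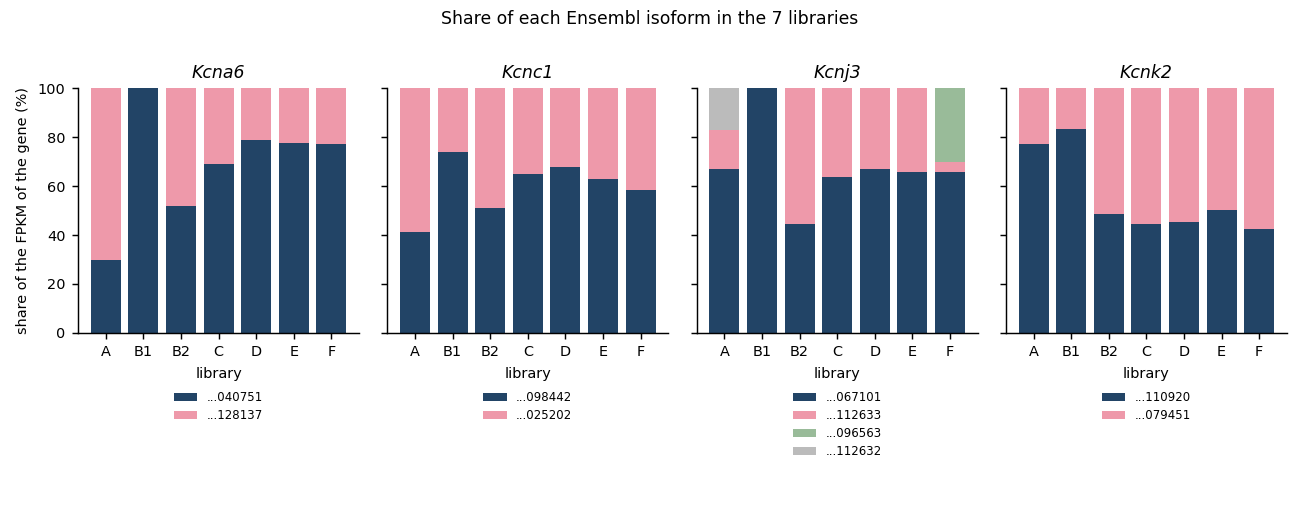
Share of each Ensembl isoform in the FPKM of its gene (y axis, %) in the 7 libraries (x axis) for Kcna6, Kcnc1, Kcnj3 and Kcnk2, with colours for the transcripts named by the last digits of their identifier. B1 and B2, from the same segment, differ by 48.0 points in Kcna6 and by 34.7 points in Kcnk2.

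The remaining genes whose symbol begins with Kcn (42) and 14 partners of potassium channels, such as Cntnap2, Lgi1 and Dpp6, were tested in the same fit. Of these 56 genes, 29 were classifiable. A trend was called for 14 of the 29, beside 43.5% of all genes tested. As deposited, 6 rose and 3 fell, beside 34.8% and 6.41% of all genes. The median slope of the 29 was 0.02 log2 units per segment (-0.08 after scaling), beside 0.09 and -0.0023 for all genes. The 3 genes with the smallest adjusted p were Kcnk13, Kcnmb2 and Kcns3. Kcnk13, a K2P subunit, had 0.610 FPKM in A, 0.865 and 0.664 in B1 and B2, 1.08 in C, 1.42 in D, and 2.42 and 6.96 in E and F. Its values climbed steeply in E and F, with a slope of 0.62 ± 0.05 log2 units per segment (limma, trend adjusted p = 0.00209), like the oligodendrocyte markers, whose part in it was not tested. Kcnmb2, a BK accessory subunit, had 0.381 FPKM in A, 1.06 in B1, 1.11 in B2, 1.40 and 1.66 in C and D, 1.28 in E and 0.735 in F. Kcns3, a silent subunit found in parvalbumin cells, had 0.749 FPKM in A, 1.98 and 2.18 in B1 and B2, 3.01 and 2.94 in C and D, and 1.90 and 1.13 in E and F. Both were arches with highs in D and C and lows in A and F, as in Kcnc2, and both had a trend called (limma, adjusted p = 0.00440 and 0.00440).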

How the data were processed

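RNA of the 7 S1 libraries was sequenced as paired polyA fragments, and the 12 samples of dorsal and lateral cortex were not used here. The authors mapped reads with TopHat 1.0.13, and cufflinks 0.8.3 estimated expression of Ensembl release 57 models in mm9 (versions from the submitters' processing notes). The FPKM values deposited for genes and transcripts carry a 95% interval and are on a linear scale. The fraction deposited for a transcript is its share in the locus, and the coverage that the authors deposited is its estimated read coverage, from which depth was estimated (31.3 M to 74.9 M fragments). The tables hold no fragment counts, so no count test was possible. A gene without a line in a library was set to 0. De novo models were not used.

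Symbols, GC content and length came from GENCODE M21 by identifier only, since its build is not that of the files. Transcripts were assigned to genes by position and FPKM, and isoforms summed to the gene within 1% in 48 of the 50 members. Trends were tested with limma 3.58.1 in R 4.3.3 on log2(FPKM + 0.1), with the Benjamini-Hochberg adjustment over all genes tested, a threshold of 0.05 and 4 residual degrees of freedom. Segments as 6 groups would leave 1. The scripts were tested on simulated data. Alternatives were 2 pseudocounts (0.01 and 1), other filters, scaling, GC correction, B averaged, a linear trend, another prior variance and each library left out, and 2 were added after the data were seen (GC and length correction, and both A and B2 left out).

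The members, subfamilies and marker lists were chosen with earlier results of these data known. Given in full are, per subfamily, the member with the largest share in a segment and the one with the highest mean, any member with a distinct highest segment of at least 40%, the 3 other channel genes or partners with the smallest adjusted p, and the members with the largest changes of isoform fraction. Other members given in every library were added after their values were seen. Some of the other channel genes are not reported here.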

Additional observations from a re-analysis of the deposited data

How the results depend on the processing

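The number of members with a trend was 18 to 31 of the members tested under the other planned settings of pseudocount, filter, scaling, GC content, prior variance and averaging of B, against 23 of 45, but 5 with a linear term alone and 3 without libraries A and B2. Leaving out 1 library gave 5 (without A) to 34 (without B1). Rising members numbered 15, 7 after median-of-ratios scaling, 8 after GC correction, 8 after correction for GC content and length, 4 with a linear term alone, 4 without A and B2, and 3 (without A) to 21 (without B1) when 1 library was left out. Falling members numbered 4, 8 after scaling, 2 with no interval filter, 1 with a linear term alone, and 0 (without E) to 8 (without A) when 1 library was left out, 2 without B2 and 1 without F. Of the other channel genes and partners, 14 had a trend, 9 at an interval limit of 25%, 4 with a linear term alone, 4 without A and B2, and 3 (without A) to 18 (without B1) with 1 library left out, 8 without C and 7 without F. Distinct highest segments numbered 22 and 13 when intervals were widened 2 times, and members with isoforms in opposite directions 4 of 5, and 14 of 20 when every listed transcript was taken. The slope of Kcnc2 turned from 0.13 to -0.013 after GC correction, -0.048 after GC and length correction, -0.095 without A (0.41 without F) and -0.15 without A and B2. That of Kcnq5 turned from -0.17 to 0.064 without F (-0.40 without A), and that of Kcnn2 from 0.16 to -0.062 without A and B2. Of the called slopes of single members, 248 values under alternatives kept their call, 103 kept the direction only and 6 turned. The cause was not tested in these cases. No paired analysis by mouse was possible because the RNA of the shared mice was pooled within each segment, and only segment B was split by litter.

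Pooled RNA and 1 library per segment limit every statement to these libraries. The median interval was 16.8% (A) and 10.8% (B2) as wide as its FPKM, and low genes such as Kcna5 and Kcnk10 were not resolved.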

Other observations

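A few potassium channel genes that are not members were found, after their values were seen, to stand out by segment. Kcnj5, a G protein-gated rectifier, was listed at 0.00997 FPKM in A, 0 and 0 in B1 and B2, 0 in C, 0.00831 in D, and 0.152 and 0.858 in E and F. It was highest in F, the segment in which the striatal genes Drd1, Drd2 and Adora2a and the oligodendrocyte markers were highest, and was not classifiable. In the upper segments, Kcnh4 had 7.95 FPKM in A, 6.51 in B1, 4.28 in B2, 1.19 and 1.46 in C and D, 1.90 in E and 0.871 in F. Its slope was -0.58 ± 0.12 log2 units per segment (limma, adjusted p = 0.0102) and -0.67 after scaling. Its relative Kcnh3 among the members was highest in A only with B1 and B2 averaged, since B1 (86.6 FPKM) lay above A (80.0 FPKM). Of the partners, Cntn2, which anchors Kv1 channels beside the node, had 6.89 FPKM in A, 17.8 and 11.9 in B1 and B2, 15.7 and 16 in C and D, and 20.1 and 45.8 in E and F. It rose with depth (slope 0.40 ± 0.09, limma, adjusted p = 0.0127) and stood apart in F, where the oligodendrocyte markers were highest, and their part in it was not tested.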
